A study of Rattus norvegicus with 12 samples.

Results

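Activator protein 1 (AP-1) and the related ATF and small Maf factors were followed through 9 genes in the right lung of ventilated and control rats: Fos, Fosb, Fosl1 and Fosl2 of the Fos family, Jun, Junb and Jund of the Jun family, and Atf3 and Maff. The members are the 15 probe sets, of 31099 on the array, whose platform annotation names a single gene that is 1 of these 9. The 12 arrays fall into 4 groups of 3: Dahl salt-sensitive rats (SS, an inbred model of salt-induced hypertension) given HTV ventilation, SS control rats, Brown Norway rats (BN, an inbred strain) given HTV ventilation, and BN control rats. HTV is not spelled out in the labels, and neither its settings nor its duration is given in the sources used here. The labels call the strains parents, give a weight of 250 to 350 g, and state that the lung circulation was flushed with saline before the right lung was frozen. No age, sex or genetic change is given for any group, and each array carries an animal number of its own.

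AP-1 proteins bind DNA as dimers through a basic leucine zipper (bZIP). Fos proteins need a Jun partner, Jun proteins can also pair with each other, Atf3 pairs with itself or with Jun proteins, and Maff is a small Maf protein that lacks a classical activation domain. Most of these genes are immediate-early genes, whose messenger RNA appears soon after a stimulus without new protein synthesis and decays fast, and stretch of cultured lung cells is known to induce Fos and Jun. Jund is the member with the steadiest expression in most tissues.

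Values are MAS5 intensities, a linear brightness per probe set scaled per array before deposit, and with 3 arrays a group their number limits precision. A probe set was tested when its mean over the 12 arrays reached the 40th percentile, an intensity of 43.6, which kept 13 of the 15 member probe sets and at least 1 for each of the 9 genes, among 18626 probe sets and 10555 genes in all. Each gene is represented by its brightest kept probe set. Fosb, Fosl2, Fosl1 and Jund probe set 1387762_s_at passed only through the groups where they are bright, since 1 or 2 of their group means lie under that level. Differences are on the log2(intensity + 16) scale, which understates changes of dim probe sets, with limma's moderated standard error (SE) and a p-value adjusted over all 18626 probe sets, past the test under 0.05. Median intensity was 58.5 to 68.1 over the arrays. The beta-actin 5-prime to 3-prime log2 ratio, a sign of RNA integrity, ran from -1.02 to -0.396 in SS HTV arrays, -1.41 to -0.233 in SS control, -1.36 to -1.16 in BN HTV and -1.47 to -0.882 in BN control arrays. Lung identity was plain from the 6 type 2 cell markers, whose summed intensity was 14710.3 to 21821.9 with no marker past the test for HTV in either strain, also at an unadjusted p under 0.05. At that unadjusted level stood 4717 of 18626 probe sets in SS and 3714 in BN.

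HTV raised most of the 9 genes in both strains. In SS lungs 7 of 9 rose, against 3.92% of all genes that rose and 4.12% that fell, and none of the 9 fell. In BN lungs 7 of 9 rose, against 2.99% of all genes that rose and 2.69% that fell, and again none of the 9 fell. Averaged over both strains 8 of 9 rose on their brightest probe set, every one except Jund, against 6.89% of all genes that rose and 8.71% that fell. All 3 HTV arrays lay above all 3 control arrays for 8 of 9 genes in SS and for 8 of 9 in BN, against 14.1% and 10.5% of all genes. These counts include Fosb, Fosl1 and Fosl2, which passed the filter only through their bright groups, so they are no separate support. With no filter 6 of 9 rose in SS, 7 in BN and 8 over both strains. A filter at the 60th percentile kept 6 members, of which 5 rose in SS, 5 in BN and 5 over both strains. The median difference over the 9 genes was 1.33 in SS and 1.74 in BN, against -0.01 and -0.03 over all genes. These are measurements of whole lung, where more cells of a type and more RNA per cell cannot be told apart.

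**Figure D1:**
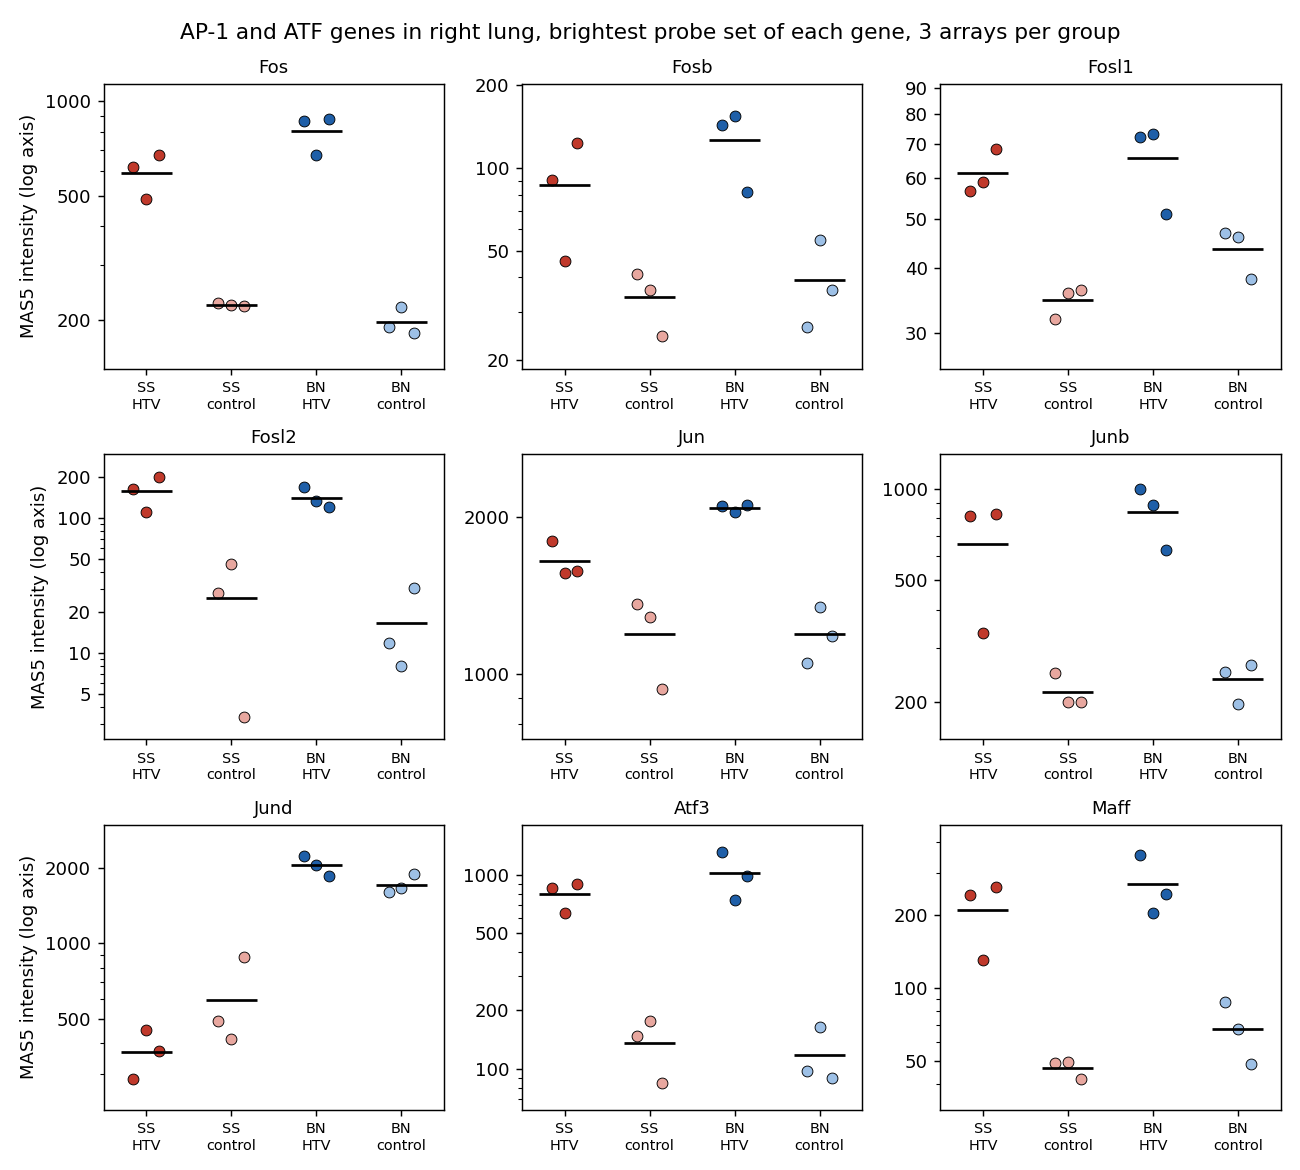
MAS5 intensity (vertical log axis) of the brightest probe set of each of the 9 genes, with 1 point per array, a line at each group mean, and SS HTV, SS control, BN HTV and BN control from left to right. In 8 panels the HTV points lie above the control points of the same strain, and in the Jund panel the BN groups lie above the SS groups.

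**Figure D2:**
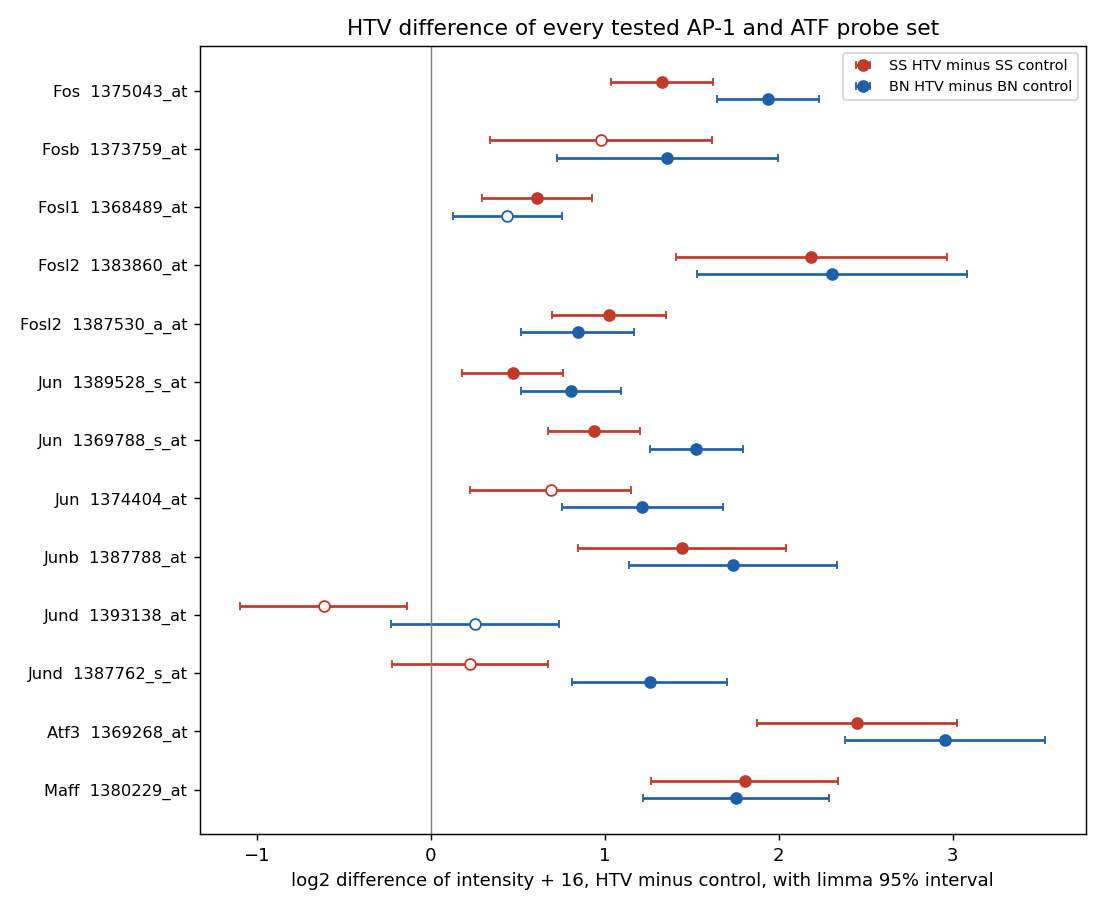
HTV minus control difference in log2(intensity + 16) for each of the 13 tested member probe sets, in SS (red) and BN (blue), with limma's 95% interval and filled points past the test. Atf3 has the largest difference in each strain, 2.45 in SS and 2.96 in BN, and the Jund probe set 1393138_at is the only one below 0, at -0.61 in SS.

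The stretch of DNA before the start of a gene holds sites through which its own transcription is set, and AP-1 and ATF factors bind the TRE (TGACTCA) and the cAMP response element, CRE (TGACGTCA), with TGACG as its half-site. The RefSeq promoter table of the rat build GRCr8 matched 6 of the 9 genes: Fosb, Fosl1, Fosl2, Junb, Jund and Maff. The Fosb window, 88089185 to 88089434 on the minus strand, lies inside the gene's RefSeq span of 88082324 to 88089506. Matches counted for Fosb, and their absence, thus describe letters inside the gene and not those before its outermost start. The 250 bases before the start are shown, 5′ to 3′ on the gene's strand, for the 4 genes that hold a CRE or its half-site on either strand, with those letters in capitals. They serve to compare the sequence of Jund, the 1 member not past the test over both strains on its brightest probe set, with that of genes that rose.
Jund, chr16:18769772-18770021, minus strand: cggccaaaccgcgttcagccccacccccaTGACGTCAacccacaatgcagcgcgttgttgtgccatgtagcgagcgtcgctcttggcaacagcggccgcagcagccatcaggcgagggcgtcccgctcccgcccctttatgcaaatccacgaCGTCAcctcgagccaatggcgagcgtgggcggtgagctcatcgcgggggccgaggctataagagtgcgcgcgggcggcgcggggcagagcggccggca
Maff, chr7:112792537-112792786, plus strand: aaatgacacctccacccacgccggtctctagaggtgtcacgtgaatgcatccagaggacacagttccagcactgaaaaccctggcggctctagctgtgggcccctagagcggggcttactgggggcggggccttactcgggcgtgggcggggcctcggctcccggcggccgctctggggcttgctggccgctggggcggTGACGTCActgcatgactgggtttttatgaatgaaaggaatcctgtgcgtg
Junb, chr19:40080876-40081125, plus strand: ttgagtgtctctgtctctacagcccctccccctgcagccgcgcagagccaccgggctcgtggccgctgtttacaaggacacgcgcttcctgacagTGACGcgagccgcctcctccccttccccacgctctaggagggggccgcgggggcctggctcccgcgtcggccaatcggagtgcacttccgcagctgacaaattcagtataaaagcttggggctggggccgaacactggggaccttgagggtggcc
Fosl1, chr1:212183635-212183884, plus strand: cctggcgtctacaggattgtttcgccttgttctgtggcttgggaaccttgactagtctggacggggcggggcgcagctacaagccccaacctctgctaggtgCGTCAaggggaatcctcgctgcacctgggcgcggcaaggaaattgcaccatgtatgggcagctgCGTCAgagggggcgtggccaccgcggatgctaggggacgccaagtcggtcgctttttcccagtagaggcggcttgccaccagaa

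The full CRE lies 221 to 214 bases before the start in Jund and 51 to 44 bases before it in Maff, so 2 of 6 members hold it, against 1.7% of 27457 promoters of the same length. The half-site, which each CRE also contains on both strands, is in 4 of 6 members and in 19.0% of all promoters. Jund holds a further half-site 98 to 94 bases before the start, Junb 1 at 155 to 151 and Fosl1 2, at 148 to 144 and 84 to 80. No TRE was found in the 6 windows, against 3.98% of all promoters. TATAAA was found in 2 of 6 windows, against 13.1% of all. It lay on the gene's strand of Junb at 49 to 44, and on the opposite strand of the Fosb window, inside the gene, at 180 to 175. The CArG box, the site of serum response factor, was in none of the 6 and in 1.5% of all promoters. These matches describe letters only, and Jund and Maff, which share the full CRE, had unlike HTV differences on their brightest probe sets. Jund probe set 1387762_s_at rose in BN by 1.26 ± 0.21 (limma, adjusted p = 0.0033). The part of the CRE in either gene was not tested.

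Fos, the founding partner of Jun and an early-response gene, was measured by probe set 1375043_at. Its intensity was 615.2, 485.6 and 674.9 in the SS HTV arrays, against 227.4, 222.8 and 221.7 in SS control arrays. In BN it was 862.0, 671.8 and 877.1 in HTV arrays and 190.5, 220.0 and 181.4 in control arrays. The groups stood far apart in both strains, and the SS control arrays were nearly equal. Fos rose in SS by 1.33 ± 0.14 (SE; adjusted p = 0.000108), a ratio of mean intensities of 2.64, and in BN by 1.94 ± 0.14 (adjusted p = 7.13e-06), a ratio of 4.07. A further Fos probe set, 1371283_at, stayed between 5.2 and 38.9 in all arrays, under the filter, and its exact permutation test over both strains gave an unadjusted p = 0.535.

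Fosb, which is best known as an early-response partner of Jun in brain and bone, was dimmer. Its intensity was 90.7, 45.9 and 123.4 in SS HTV arrays against 41.3, 35.9 and 24.5 in SS control arrays, and 143.5, 154.0 and 81.5 in BN HTV arrays against 26.5, 54.9 and 35.9 in BN control arrays. The groups did not overlap in either strain, but SS HTV 2 lay close to the highest SS control array. Fosb rose in BN by 1.36 ± 0.30 (adjusted p = 0.0164), while the SS difference of 0.98 ± 0.30 missed the test (adjusted p = 0.0606). The SS value passed without SS HTV 2 (adjusted p = 0.0154) or BN HTV 3 (0.0456), and the BN call was lost without BN HTV 1 (0.0728), BN HTV 2 (0.0767), BN control 1 (0.0737) or BN control 3 (0.0557). Over both strains Fosb rose by 1.17 ± 0.21 (adjusted p = 0.00214).

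Fosl1, which encodes Fra-1, had the smallest rise of the Fos family. Its intensity was 56.7, 59.1 and 68.3 in SS HTV arrays against 31.9, 35.8 and 36.3 in SS control arrays, and 72.2, 73.3 and 51.1 in BN HTV arrays against 46.9, 46.1 and 38.1 in BN control arrays. BN HTV 3 stood only a few units above the brightest BN control array. Fosl1 rose in SS by 0.61 ± 0.15 (adjusted p = 0.0235), and the BN difference of 0.44 ± 0.15 missed the test (adjusted p = 0.103). The SS call was lost without SS HTV 1 (adjusted p = 0.0568), SS HTV 3 (0.0928), SS control 1 (0.0592) or SS control 2 (0.0564), and the BN value passed without BN HTV 3 (0.0406). Averaged over both strains Fosl1 rose by 0.52 ± 0.10 (adjusted p = 0.00404).

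Fosl2, which encodes Fra-2, had a pair of probe sets above the filter, and both gave a rise in both strains. Probe set 1383860_at read 163.3, 110.7 and 200.6 in SS HTV arrays against 27.6, 45.6 and 3.4 in SS control arrays, and 169.4, 132.6 and 119.8 in BN HTV arrays against 11.8, 8.1 and 30.2 in BN control arrays. Control values this low are near the bottom of the scale, where SS control 3 stood at 3.4. The difference was 2.19 ± 0.36 in SS (adjusted p = 0.00293) and 2.31 ± 0.36 in BN (adjusted p = 0.00244). Probe set 1387530_a_at ran from 58.5 to 90.6 in SS HTV arrays against 24.6 to 29.8 in SS control arrays, and from 54.4 to 62.9 in BN HTV arrays against 21.8 to 27.4 in BN control arrays. It had smaller differences of 1.02 ± 0.15 in SS (adjusted p = 0.00139) and 0.85 ± 0.15 in BN (adjusted p = 0.00538), so the size of the Fosl2 rise depends on the probe set.

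Jun, a member that JNK kinases phosphorylate and the main partner of Fos, was read by 3 probe sets. The brightest, 1389528_s_at, gave 1795.5, 1559.4 and 1574.4 in SS HTV arrays against 1359.2, 1287.6 and 935.5 in SS control arrays, and 2095.6, 2045.8 and 2112.8 in BN HTV arrays against 1046.9, 1345.3 and 1180.0 in BN control arrays. The groups did not overlap, and the BN HTV arrays lay close to each other. Jun rose by 0.47 ± 0.13 in SS (adjusted p = 0.0473) and by 0.81 ± 0.13 in BN (adjusted p = 0.00333). The SS call held in 3 of the 12 fits that left out an array. It was lost without any of SS HTV 1 (adjusted p = 0.167), SS HTV 2 (0.0747), SS HTV 3 (0.0961), SS control 2 (0.0626), SS control 3 (0.117), BN HTV 1 (0.0637), BN HTV 2 (0.0584), BN HTV 3 (0.0592) or BN control 3 (0.0667).

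The second Jun probe set, 1369788_s_at, separated the groups further. It read 1659.1, 1426.5 and 1357.8 in SS HTV arrays against 820.9, 785.9 and 685.1 in SS control arrays, and 1977.1, 2030.9 and 2273.4 in BN HTV arrays against 690.2, 845.3 and 626.3 in BN control arrays. Its rise was 0.94 ± 0.12 in SS (adjusted p = 0.000548) and 1.53 ± 0.12 in BN (adjusted p = 2.16e-05), and both passed in every alternative run. The remaining Jun probe set, 1374404_at, read 473.3, 331.3 and 456.6 in SS HTV arrays against 281.0, 349.1 and 160.8 in SS control arrays, which overlap, and its SS difference of 0.69 ± 0.21 missed the test (adjusted p = 0.0675). It passed without SS HTV 2 (adjusted p = 0.0475) or SS control 2 (0.0263). In BN it read 701.6, 712.3 and 759.4 in HTV arrays against 338.9, 267.2 and 305.3 in control arrays, a rise of 1.22 ± 0.21 (adjusted p = 0.00496).

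Junb, an early-response Jun protein that often opposes Jun on shared targets, read 813.9, 336.8 and 825.7 in SS HTV arrays against 248.1, 199.2 and 199.1 in SS control arrays. In BN it read 997.4, 881.8 and 628.1 in HTV arrays against 249.8, 196.1 and 264.9 in control arrays. SS HTV 2 was well under the other SS HTV arrays and still above every control array. Junb rose by 1.44 ± 0.28 in SS (adjusted p = 0.00737) and by 1.74 ± 0.28 in BN (adjusted p = 0.00278), ratios of mean intensities of 3.06 and 3.53.

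Atf3, a stress-induced ATF protein that can repress inflammatory genes, had the largest difference of the 9 genes in each strain. Its intensity was 857.1, 632.9 and 896.6 in SS HTV arrays against 147.7, 175.9 and 84.8 in SS control arrays, and 1316.2, 744.6 and 988.9 in BN HTV arrays against 97.5, 165.2 and 90.1 in BN control arrays. Every HTV array was several times as bright as every control array of its strain. Atf3 rose by 2.45 ± 0.27 in SS (adjusted p = 0.000168) and by 2.96 ± 0.27 in BN (adjusted p = 3.84e-05), ratios of mean intensities of 5.84 and 8.64. Among 10555 genes its difference was the 11th highest in SS and the 5th highest in BN.

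Maff read 242.1, 130.9 and 260.5 in SS HTV arrays against 49.1, 49.3 and 41.8 in SS control arrays, and 355.1, 204.4 and 244.9 in BN HTV arrays against 87.1, 67.9 and 48.3 in BN control arrays. The groups stood apart in both strains, and SS HTV 2 was again the lowest of its group. Maff rose by 1.81 ± 0.25 in SS (adjusted p = 0.000837) and by 1.75 ± 0.25 in BN (adjusted p = 0.00134). Ranked among all genes, Maff stood 40th from the highest in SS and 42nd in BN, Junb 77th and 44th, and Fos 87th and 31st.

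Jund gave unlike values on its probe sets. The brightest, probe set 1393138_at, read 286.5, 450.3 and 369.6 in SS HTV arrays against 489.1, 414.4 and 881.4 in SS control arrays, and 2251.0, 2055.2 and 1861.2 in BN HTV arrays against 1607.4, 1663.2 and 1890.0 in BN control arrays. HTV and control arrays overlapped in both strains, and SS control 3 was the brightest SS array. Neither the SS difference of -0.61 ± 0.22 (adjusted p = 0.107) nor the BN difference of 0.25 ± 0.22 (adjusted p = 0.591) passed the test.

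Among the 9 genes, each on its brightest probe set, Jund had the largest difference between the strains, in control and in HTV lungs. In control lungs probe set 1393138_at was lower in SS by 1.58 on the log2 scale (difference -1.58 ± 0.22, adjusted p = 0.000852), and the SS control arrays, 414.4 to 881.4, did not reach the BN control arrays, 1607.4 to 1890.0. In HTV lungs the difference was -2.45 ± 0.22 (adjusted p = 2.99e-05), the 8th lowest of 10555 genes. Jund was the 1 member of 9 past the test between the strains in each condition, against 5.16% of all genes lower in SS and 5.87% higher in control lungs, and 3.27% lower and 4.01% higher in HTV lungs. These shares over all genes depend on single arrays. The 1165 genes called in control lungs were 363 without BN control 2, 566 without SS control 2 and 641 without BN control 3. The 768 called in HTV lungs were 332 without SS HTV 2, 351 without SS HTV 3, 445 without BN HTV 2, 468 without BN HTV 1 and 287 with the beta-actin ratio as a covariate. Jund passed in each of these.

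A second Jund probe set, 1387762_s_at, was near the bottom of the scale in SS only. It read 4.0, 3.4 and 9.0 in SS HTV arrays and 2.2, 2.4 and 2.1 in SS control arrays, against 314.5, 193.3 and 287.2 in BN HTV arrays and 114.4, 70.1 and 120.8 in BN control arrays. On this probe set BN rose with HTV by 1.26 ± 0.21 (adjusted p = 0.0033), where the brighter probe set gave no call, and the SS difference was 0.23 ± 0.21 (adjusted p = 0.523). Over both strains it rose by 0.74 ± 0.15 (adjusted p = 0.00415), and with the Jund probe sets averaged the BN difference of 0.76 passed (adjusted p = 0.0149), so that the lack of a Jund call in BN rests on the brightest probe set. Between strains it differed by -2.66 ± 0.21 in control lungs (adjusted p = 8.13e-06) and -3.69 ± 0.21 in HTV lungs (adjusted p = 3.46e-07). It passed the filter only through its BN values, so its test between strains is no separate support for a strain difference. A further probe set, 1375768_at, stayed at 1.8 to 13.0 in all 12 arrays, showed no such split between strains, and had its HTV arrays lower over both strains by an exact permutation test (unadjusted p = 0.025), at a level near the bottom of the scale. The ratio of BN to SS control means was 2.89 on 1393138_at, 45.64 on 1387762_s_at and 1.03 on 1375768_at, so the strain difference depends on the probe set. Whether the probes bind the sequences of both strains equally was not tested. None of the 10 measured genes nearest to Jund on chromosome 16 passed limma's test between strains in control lungs, with differences of -0.35 to 0.28. At an unadjusted p under 0.05 stood 1 of the 10, against 5405 of 18626 probe sets.

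**Figure D3:**
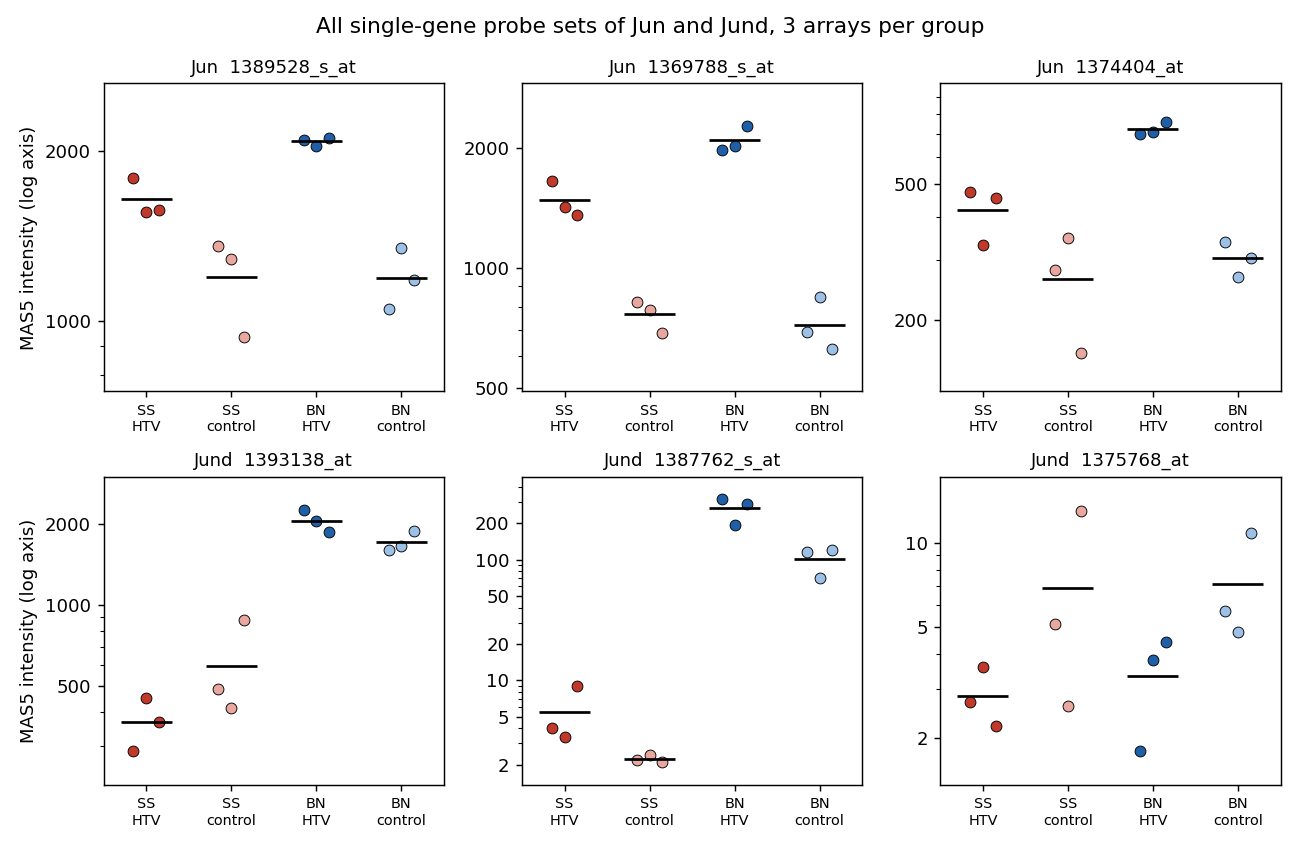
MAS5 intensity (vertical log axes) of the 3 Jun and 3 Jund probe sets, with 1 point per array, a line at each group mean, and SS HTV, SS control, BN HTV and BN control from left to right. The Jun probe sets share the HTV pattern, while Jund 1393138_at and 1387762_s_at split by strain and 1375768_at stays dim in every array.

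Whether HTV moved the members more in one strain was asked with the SS minus BN difference of the HTV differences, and 0 of 9 genes passed the limma test, as did 0% of all 10555 genes. At an unadjusted p under 0.05 stood 2 of 9 members and 1547 of 18626 probe sets. The members were Fos, at -0.61 ± 0.19 (unadjusted p = 0.00735, adjusted p = 0.555), and Jund, at -0.87 ± 0.32 (0.0161, adjusted p = 0.576). The second Jun probe set had -0.59 ± 0.17 (unadjusted p = 0.00483, adjusted p = 0.531) and the second Jund probe set -1.03 ± 0.29 (0.00369, adjusted p = 0.531). The difference was below 0, a larger value in BN, for 7 of 9 members, against 46.4% of all genes, with a median of -0.34 over the members and 0.03 over all genes. For Maff the difference was 0.05 with a 95% interval of -0.71 to 0.81, and for Fosl1 0.17 with an interval of -0.28 to 0.61. With 3 arrays per group such intervals are too wide to show that the strains responded alike.

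In HTV lungs the SS minus BN difference was below 0 for 8 of 9 members, Jund among them, against 47.9% of all genes, and none of the other 8 passed the test on its brightest probe set. The members were read on the same arrays, so their signs are not separate. The beta-actin ratio was -1.02 to -0.396 in SS HTV arrays and -1.36 to -1.16 in BN HTV arrays. Strain and this sign of RNA integrity thus went together in HTV lungs. Outside Jund only Jun probe sets passed the test there: 1369788_s_at at -0.50 ± 0.12 (adjusted p = 0.0248) and 1374404_at at -0.78 ± 0.21 (adjusted p = 0.0403), with all 3 SS HTV arrays under all 3 BN HTV arrays. The brightest Jun probe set had -0.34 ± 0.13 (adjusted p = 0.139) and Fos -0.43 ± 0.14 (adjusted p = 0.0683), neither past the test. The 1369788_s_at call was lost without SS HTV 2 (adjusted p = 0.0925), SS HTV 3 (0.104), BN HTV 2 (0.0579) or BN HTV 3 (0.0841), and with the beta-actin ratio as a covariate (0.121). The 1374404_at call was lost without SS HTV 2 (0.169), SS HTV 3 (0.0814), BN HTV 1 (0.0888), BN HTV 2 (0.103), BN HTV 3 (0.0987), BN control 1 (0.0506) or BN control 3 (0.0562). In control lungs no member other than Jund passed limma's test between the strains, also at an unadjusted p under 0.05, where 5405 of 18626 probe sets stood.

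Within the SS groups and BN HTV, some arrays held the lowest or highest value for most members. SS HTV 2 was the lowest SS HTV array for 7 of 9 genes and SS HTV 3 the highest for 7 of 9. SS control 3 was the lowest SS control array for 7 of 9 genes, and it also had the lowest beta-actin ratio of the SS arrays, at -1.41. BN HTV 1 was the highest BN HTV array for 5 of 9 genes, and the lowest was BN HTV 3 for 5 and BN HTV 2 for 4. BN control arrays had no common order, each being the lowest for 2 to 4 genes and the highest for 2 to 4. Measured as the root mean square (RMS) difference between profiles of log2(intensity + 16), each set to mean 0 and SD 1 over the 12 arrays, 8 members lay 0.26 to 0.43 from the mean profile of the 9, and Jund lay 1.15 from it, against a median of 1.30 over all genes. The mean profile contains the members themselves, which brings them closer to it.

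**Figure D4:**
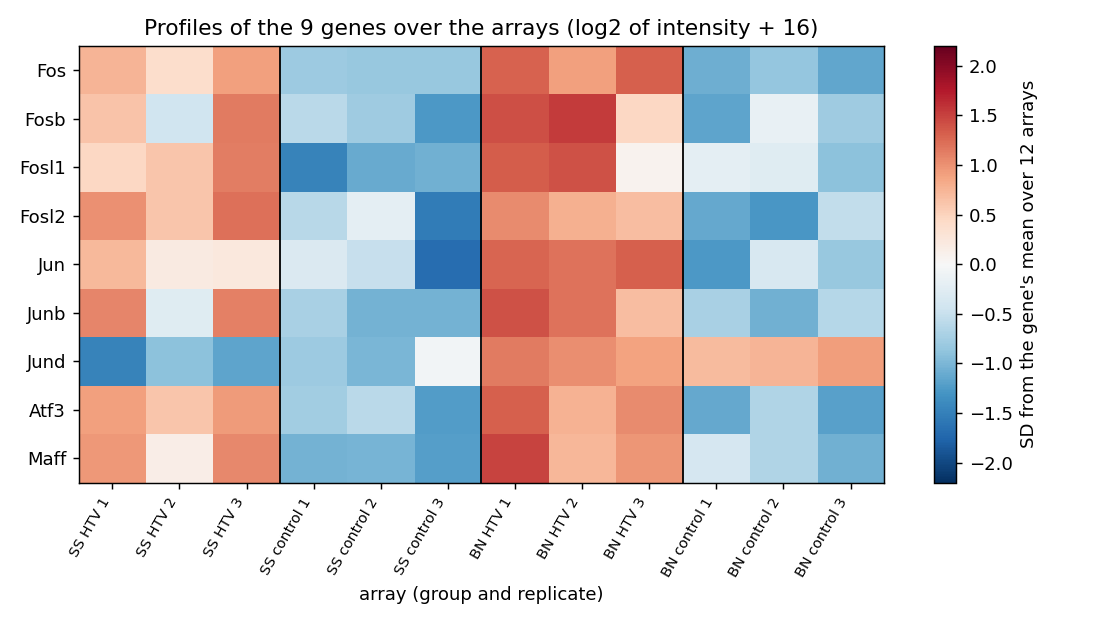
Profile of each of the 9 genes over the 12 arrays, as the number of SD that log2(intensity + 16) lies above (red) or below (blue) the gene's mean, with SS HTV, SS control, BN HTV and BN control from left to right. The Jund row is blue in SS and red in BN, and the other 8 rows are red in HTV and blue in control arrays, except that SS HTV 2 is below the mean for Fosb (-0.43) and Junb (-0.26).

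Neutrophil markers moved with the members under HTV. Of 7 neutrophil markers, including S100a8, S100a9 and Mmp8, 4 rose in SS and 5 in BN, against 3.92% and 2.99% of all genes. None of these markers was at 0 in any array. Their summed intensity was 5666.9 to 8974.2 in SS HTV arrays against 1979 to 2413.3 in SS control arrays, and 3115.4 to 12014.9 in BN HTV arrays against 1170.9 to 2490 in BN control arrays. BN HTV 3 had the lowest neutrophil sum of the HTV arrays, 3115.4, and it held the highest Fos value of all arrays, 877.1, while its Fosb, Fosl1, Fosl2 and Junb values were the lowest of the BN HTV group. SS HTV 2, the lowest SS HTV array for most members, also had the lowest neutrophil sum of its group. BN HTV 2, with the highest neutrophil sum of all arrays, 12014.9, was the lowest BN HTV array for 4 of 9 members, Fos, Jun, Atf3 and Maff, and the highest for 2. The summed intensity of 3 platelet and red cell markers was 656.5 to 1213.1 in SS HTV arrays against 273.1 to 603.8 in SS control arrays, and 425 to 772 in BN HTV arrays against 230.8 to 419.4 in BN control arrays. Lymphocyte markers moved the other way. Both measured B cell markers fell in SS and 1 of 2 in BN, against 4.12% and 2.69% of all genes that fell. Of 7 T and NK cell markers 3 fell in SS (Gzma by 1.19, Klrb1a by 0.94 and Klrd1 by 0.85) and 1 in BN (Klrb1a by 0.69), against the same shares. The single BN calls are counts too small to set apart from the BN share. The summed intensity of the T and NK cell markers was 672.5 to 703.1 in SS HTV arrays against 860.8 to 1288 in SS control arrays. In BN it was 489.9 to 614.7 in HTV arrays against 680.3 to 734 in control arrays. The part of these cells in the members' differences was not tested.

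Around the members, a list of bZIP partners and relatives moved in part. Of 20 listed genes 15 were measured, of which 6 rose in SS and 5 in BN, against 3.92% and 2.99% of all genes, and none fell. The median difference was 0.31 in SS and 0.17 in BN. Nfil3, a bZIP repressor, read 372.8, 306.2 and 213.8 in SS HTV arrays against 87, 88.1 and 41.2 in SS control arrays, a rise of 1.85 ± 0.24 (adjusted p = 0.000525), and it rose in BN by 1.51 ± 0.24 (adjusted p = 0.00269). Crem, whose gene also encodes the early repressor ICER, read 595.5, 875.1 and 917.1 in SS HTV arrays against 208.7, 239.5 and 312.6 in SS control arrays, a rise of 1.58 ± 0.19 (adjusted p = 0.000282), and it rose in BN by 1.12 ± 0.19 (adjusted p = 0.00354). Creb5 rose by 1.02 ± 0.14 in SS and 0.85 ± 0.14 in BN. Mafk, a small Maf protein like Maff, rose by 0.62 ± 0.12 in SS and by 0.57 ± 0.12 in BN, where the call was lost without BN HTV 1 (adjusted p = 0.0701) or BN control 3 (0.0639). The BN count fell to 3 without BN HTV 1.

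The kinases that switch AP-1 on and the factors that act on the Fos promoter were counted in the same way. Of 17 listed MAP kinases and JNK pathway genes 11 were measured, of which 1 rose and 1 fell in SS and 1 rose in BN, counts too small to set apart from the shares over all genes (3.92% higher and 4.12% lower in SS, 2.99% higher in BN). Over both strains 2 rose and 1 fell, against 6.89% of all genes that rose and 8.71% that fell, counts again too small to set apart. The second to rise was Map2k3, a kinase upstream of p38, at 0.48 ± 0.11 (adjusted p = 0.00906). Map3k8, a kinase upstream of ERK and JNK that is itself an early-response gene, read 420.2, 271.8 and 416.3 in SS HTV arrays against 71.2, 81.7 and 74.5 in SS control arrays, and 516.9, 376.8 and 482.3 in BN HTV arrays against 62.8, 96 and 100.8 in BN control arrays. It rose by 2.05 ± 0.19 in SS (adjusted p = 5.69e-05) and 2.22 ± 0.19 in BN (adjusted p = 2.91e-05). Map3k1, a kinase upstream of JNK, fell in SS by 0.45 ± 0.10 (adjusted p = 0.016), a call lost without SS HTV 1 (0.0769), SS HTV 3 (0.0525) or SS control 2 (0.0519). The BN count was 3 without SS control 3. Of 8 listed serum response factor and ternary complex factor genes 5 were measured. Srf rose in BN by 0.51 ± 0.12 (adjusted p = 0.0213), lost without BN HTV 1 (0.102), BN control 1 (0.0793), BN control 2 (0.0525) or BN control 3 (0.0687). It was the 1 of 5 past the test in BN, against 2.99% of all genes that rose, a count too small to set apart. The SS difference of Srf was 0.37 ± 0.12 (adjusted p = 0.0707). It was the 1 of 5 in SS at an unadjusted p under 0.05, where 4717 of 18626 probe sets stood. Of 9 genes of AP-1 turnover and co-regulation, 7 were measured, Fbxw7, Nfatc1, Nfatc2, Nfatc3, Cops5, Cop1 and Ncor1, and none passed limma's test in either strain. At an unadjusted p under 0.05 stood 1 of the 7 in SS, Nfatc3 at -0.31 ± 0.12 (adjusted p = 0.144), and 0 in BN. Among all 18626 probe sets 4717 stood there in SS and 3714 in BN.

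Textbook targets of AP-1 were split. Of 24 listed genes 19 were measured, of which 5 rose in SS, against 3.92% of all genes. In BN 7 rose and 1 fell, against 2.99% and 2.69% of all genes, and the median difference was 0.21 in SS and 0.46 in BN. The BN count of 8 calls was 4 without BN HTV 1, 3 without BN HTV 2, 4 without BN control 1, 3 without BN control 2 and 5 without BN control 3. Sphk1, which makes sphingosine 1-phosphate, rose by 1.76 ± 0.17 in SS (adjusted p = 8.1e-05) and 1.29 ± 0.17 in BN (adjusted p = 0.000745). F3, tissue factor, rose by 1.45 ± 0.22 in SS (adjusted p = 0.00141) and 1.67 ± 0.22 in BN (adjusted p = 0.000611). Ptgs2, the inducible cyclooxygenase, rose by 1.26 ± 0.27 in SS (adjusted p = 0.0145), lost without SS HTV 3 (0.067), and by 1.77 ± 0.27 in BN (adjusted p = 0.00229). Plaur, the urokinase receptor, rose by 1.27 ± 0.22 in SS (adjusted p = 0.00369) and by 1.03 ± 0.22 in BN (adjusted p = 0.0148), where the call was lost without BN HTV 1 (0.0728), BN HTV 2 (0.0604) or BN control 2 (0.0687). Plau, urokinase itself, fell in BN by 0.56 ± 0.14 (adjusted p = 0.0351), and that call was lost without any 1 of the 6 BN arrays, with adjusted p up to 0.119. Mmp9, a matrix protease that neutrophils carry, rose in SS by 3.58 ± 0.74 (adjusted p = 0.0112), a call lost without SS HTV 1 (0.0589). In BN it rose by 2.82 ± 0.74 (adjusted p = 0.0411), a call that held in 13 of 24 alternatives. BN HTV 3, which had the lowest neutrophil sum of the HTV arrays, read 19.2 for Mmp9.

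**Figure D5:**
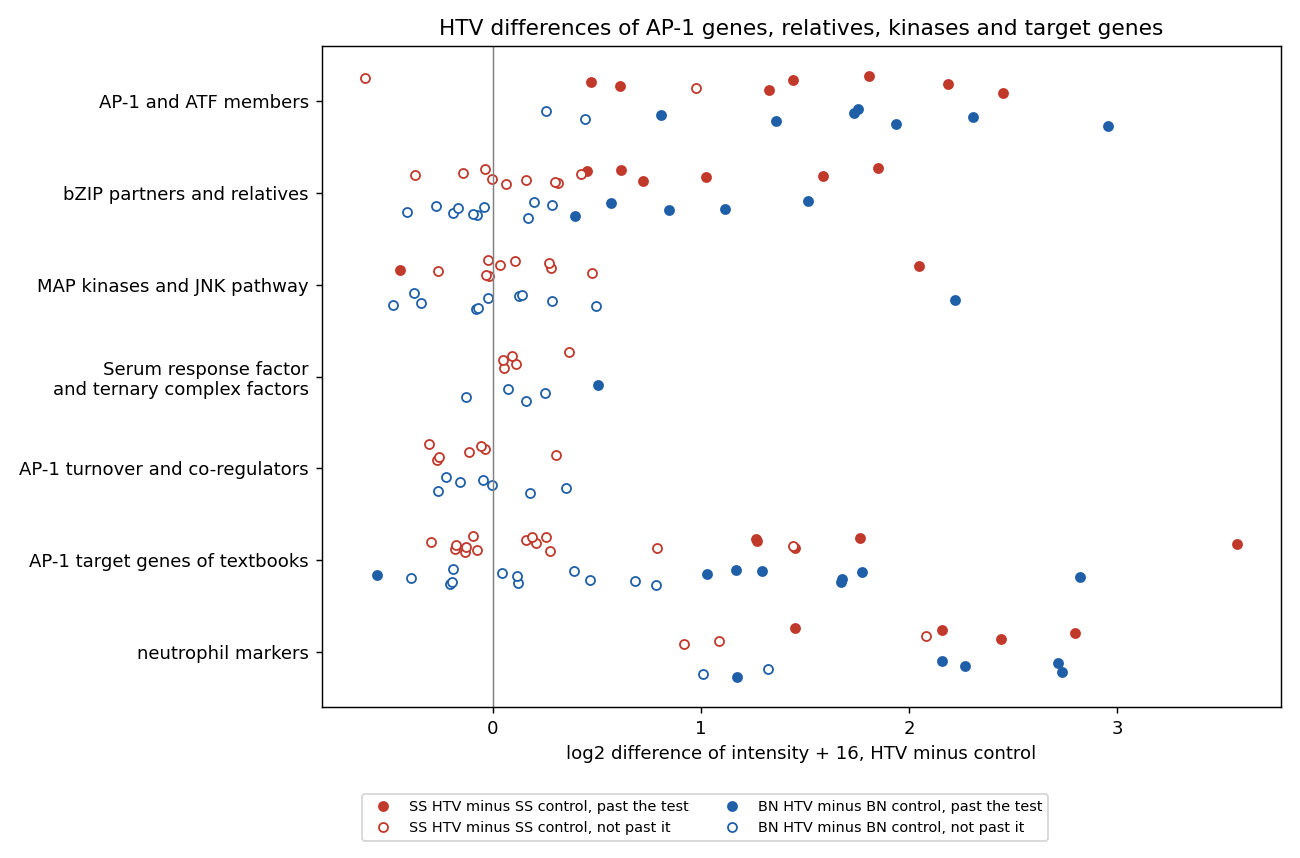
HTV minus control difference in log2(intensity + 16), 1 point per gene, for the 9 AP-1 and ATF genes, 5 related lists and the neutrophil markers, in SS (red) and BN (blue), filled where past the test. Most of the 9 genes lie well right of 0. Kinases other than Map3k8 (2.05 in SS and 2.22 in BN) lie between -0.48 and 0.49, and the turnover genes between -0.31 and 0.35.

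The genes whose profile over the 12 arrays was most like the mean profile of the 9 were Plat (RMS difference 0.21), Ncoa7 (0.23), Sema6b (0.24), Ier3 (0.25) and Csrnp1 (0.25). Plat encodes tissue plasminogen activator, and it rose by 1.15 ± 0.13 in SS and 1.12 ± 0.13 in BN. Csrnp1 rose by 1.83 ± 0.23 in SS and 2.36 ± 0.23 in BN, Ier3, an early-response gene, by 1.13 ± 0.19 and 1.58 ± 0.19, and Sema6b by 1.08 ± 0.14 and 1.17 ± 0.14. Ncoa7 rose by 0.86 ± 0.18 in SS and 1.01 ± 0.18 in BN, and its SS call was lost without SS HTV 3 (adjusted p = 0.0507). The genes nearest to Fos were Map3k8 (0.19), Il1a (0.20) and Slc25a25 (0.21), and the same 3 were nearest to Atf3, led by Il1a (0.21), which encodes interleukin 1 alpha. All of these likenesses run over the same 12 arrays, so they share the HTV and control contrast and describe these arrays only.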

How the data were processed

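RNA of 12 right lungs was measured on Affymetrix rat arrays. Per the labels' protocols, total RNA was extracted with Trizol and 6 µg was labelled with biotin. The authors deposited linear intensity values per probe set, made with MAS5 per the submitters' processing notes. Its version is not given in the sources used here. Between the 2nd and 98th percentile the arrays averaged 149.6 to 150.0, and the values were used at that scale. Detection calls were left out, and the distance of a dim value from background is thus unknown.

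Of the probe sets, 20826 had 1 gene name in the platform annotation, 436 had several and 9780 had none. A further 57 were controls and were left out. Intensities were tested as log2(intensity + 16) with limma 3.58.1 in R 4.3.3 (lmFit, eBayes with an intensity trend), 4 group means over 12 arrays, with Benjamini-Hochberg adjustment over 18626 probe sets within each of 6 comparisons and a threshold of 0.05. The fit was tested on simulated data. Exact permutation tests were two-sided within strain, over 400 relabellings, with a smallest p of 0.005. Groups come from the labels, which name no batch. Nothing beyond animal numbers says how separately the lungs of a group were handled, so a p-value measures only the spread among these arrays.

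The members and lists were chosen with earlier results of these data known. The rule for naming covers all members, up to 4 genes of each list each way with the smallest p per HTV comparison, of which a selection is printed, and the nearest profiles. Alternatives were other pseudocounts, filters, scalings, variance models and probe set rules, and each array left out. The beta-actin covariate and the joint removal of SS control 3 and BN HTV 3 were chosen after seeing the data, as were the alternatives for the list genes.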

Additional observations from a re-analysis of the deposited data

How the results depend on the processing

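Member calls for HTV over both strains stayed at 8 of 9 in every alternative except a filter at the 60th percentile, which kept 6 members and called 5. In SS the count of members called was 5 to 7 over all alternatives and in BN 5 to 8, and 5 to 7 and 6 to 8 over the single arrays left out. The member count for the strains in HTV lungs was 2 under array weights, with Fos beside Jund, and 2 when probe sets of a gene were averaged, with Jun beside Jund, and 1 to 2 over the single arrays left out (2 without SS control 3, with Jun, or BN HTV 2, with Fos). For the response difference it stayed at 0 and for control lungs at 1. Jund over both strains, -0.18 and not past the test, turned to 0.28 when its probe sets were averaged and to 0.0119 with SS control 3 and BN HTV 3 both left out, neither past the test, while averaging made Jund in BN a call (0.76, adjusted p = 0.0149). Median centring moved the share of called genes that were higher to 38.1% from 48.8% for HTV in SS, to 62.6% from 52.7% in BN and to 73.7% from 53.2% for the strains in control lungs, and left 6 members called in SS and 7 in BN. Over all genes 849 were called for HTV in SS, against 374, 395, 529 and 559 without SS HTV 1, SS HTV 3, SS control 2 or SS control 3 and 464 with only the arrays compared, and 600 in BN, against 307 to 350 without BN HTV 1, BN HTV 2 or any 1 BN control array, 923 with array weights and 909 with SS control 3 and BN HTV 3 both left out. For the strains in control lungs 1165 were called, against 2039 with array weights and 707 with only the arrays compared. No paired analysis was possible because the groups share no replicate numbers in the labels. With 3 arrays per group, small differences of dim members are not detectable.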
